A study of Mus musculus with 6 samples.

Results

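Very long genes are genes whose introns stretch the transcribed DNA so far that RNA polymerase II needs hours to cross them. The 46 genes described here were listed by symbol because their gene bodies were held to be roughly 250 kb or longer and because splenocytes were held to express them. They are 46 of 56413 symbols in the deposited count table. RNA was measured by total RNA sequencing after removal of ribosomal RNA, in fresh, unfractionated mouse splenocytes of 3 Top3b-KO and 3 WT libraries. Top3b-KO is the library label for mice lacking Top3b, the gene of topoisomerase III-beta, and WT is the wild type. The labels give no strain, age, sex or design of the knockout allele, and they do not say whether each library came from a separate animal, so all p-values measure the spread between these libraries, which may be technical. The study's stated interest is the part of Top3b in preventing tumours and immune dysregulation.

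As background, a polymerase that moves along a gene overwinds the DNA ahead of it and underwinds the DNA behind it. Topoisomerases relax this twist, and inhibitors of topoisomerase I are known to lower the output of long genes in neurons more than that of short ones. Topoisomerase III-beta differs from the others in acting on RNA as well as on single-stranded DNA, and it works with the Tudor protein Tdrd3. Underwound DNA behind the polymerase favours R-loops, in which the new RNA stays paired with its template. Several of the longest genes of mammals, among them Fhit and Wwox, also lie at common fragile sites, which break when replication is slowed.

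The annotated span was taken from GENCODE M21, on the mouse build GRCm38, whereas the reads were aligned to mm39, so only lengths are given here. Positions of promoter windows, given further on, are on GRCm38.p6 and do not hold for mm39. By that annotation 45 of the 46 genes span at least 250 kb, and Zfand3 falls short at 206 kb. The members nearest above the limit are Tcf12 at 269 kb and Bank1 at 273 kb. The median span of the 46 is 518 kb, 24 of them reach 500 kb, and the longest is Fhit at 1612 kb. Among all 17572 tested genes with an annotated span, the median is 14.98 kb. All 46 code for protein and they are spread over 16 chromosomes. Their longest annotated transcripts have a median length of 5.70 kb, so the median gene is 85.9 times as long as its transcript, against 5.35 times for all tested genes. Fhit and Immp2l are the extremes of this kind, with transcripts of 1.09 and 1.15 kb from spans of 1612 kb and 931 kb.

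Introns of this size hold other genes, and 43 of the 46 spans overlap at least 1 other annotated gene, with a median of 3 and a maximum of 26 in Auts2. For 21 members an exon of another gene overlaps an exon of the member, on the opposite strand in 18 and on the same strand in 3. The labels name 2 directional library kits, with their read lengths, and which was used for these libraries could not be settled. No source used here gives the strand setting of the counting, so reads in such overlaps cannot be assigned with certainty. The overlaps include the most abundant members Dock2, with 4930403D09Rik on the opposite strand, and Foxp1, with 2 genes on its own strand. Inpp4b and Diaph2, which had the smallest p-values of the list, have no such overlap.

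Promoter windows of 300 bases, from 250 before to 50 after a RefSeq start site on GRCm38.p6, were on hand for 39 of the 46 genes and came to 56 windows, since 13 genes had more than 1 start. They are shown because transcription of a gene of this length begins at such short stretches, and because these stretches differed widely within the list. The 5 printed belong to the 3 genes with the smallest p-values and to a pair of abundant genes of lymphocyte signalling. Inpp4b lies at chr8:81342312-81342611 on the plus strand, Diaph2 at chrX:129749492-129749791 (plus), Fto at chr8:91313275-91313574 (plus), Dock2 at chr11:34783856-34784155 (minus) and Bank1 at chr3:136326017-136326316 (minus), each read 5′ to 3′ along the gene with every CpG dinucleotide in capitals.
Inpp4b: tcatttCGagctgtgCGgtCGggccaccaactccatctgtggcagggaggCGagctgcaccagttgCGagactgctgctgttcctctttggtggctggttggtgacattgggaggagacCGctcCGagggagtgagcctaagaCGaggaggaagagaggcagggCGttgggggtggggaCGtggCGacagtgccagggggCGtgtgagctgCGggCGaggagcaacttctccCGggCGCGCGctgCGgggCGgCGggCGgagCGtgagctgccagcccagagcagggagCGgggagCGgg
Diaph2: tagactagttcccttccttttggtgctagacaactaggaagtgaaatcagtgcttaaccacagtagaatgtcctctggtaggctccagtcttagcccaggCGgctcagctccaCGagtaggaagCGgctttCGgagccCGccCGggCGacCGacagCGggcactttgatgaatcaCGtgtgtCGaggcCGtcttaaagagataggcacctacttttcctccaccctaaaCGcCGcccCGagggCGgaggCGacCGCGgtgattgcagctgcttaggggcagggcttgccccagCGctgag
Fto: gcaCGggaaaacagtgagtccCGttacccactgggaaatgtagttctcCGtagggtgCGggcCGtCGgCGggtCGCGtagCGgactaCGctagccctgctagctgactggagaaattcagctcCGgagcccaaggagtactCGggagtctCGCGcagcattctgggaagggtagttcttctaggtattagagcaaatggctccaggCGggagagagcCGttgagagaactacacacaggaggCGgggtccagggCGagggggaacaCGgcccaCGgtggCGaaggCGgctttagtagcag
Dock2: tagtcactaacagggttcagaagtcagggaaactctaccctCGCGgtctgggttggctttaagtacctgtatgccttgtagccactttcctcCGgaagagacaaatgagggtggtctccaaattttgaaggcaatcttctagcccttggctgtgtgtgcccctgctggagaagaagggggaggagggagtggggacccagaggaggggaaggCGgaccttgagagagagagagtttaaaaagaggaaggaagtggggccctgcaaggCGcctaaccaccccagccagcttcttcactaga
Bank1: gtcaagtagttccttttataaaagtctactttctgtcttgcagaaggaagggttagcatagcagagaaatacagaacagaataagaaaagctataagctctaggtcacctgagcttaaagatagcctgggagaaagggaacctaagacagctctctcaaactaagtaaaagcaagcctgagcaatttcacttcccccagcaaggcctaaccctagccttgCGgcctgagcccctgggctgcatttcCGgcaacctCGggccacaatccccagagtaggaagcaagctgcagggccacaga
The windows of Inpp4b, Diaph2 and Fto held 25, 20 and 23 CpG dinucleotides, and those of Dock2 and Bank1 held 5 and 3. Set against the number that their C and G content would give, the ratio of observed to expected CpG was 0.788 for Inpp4b, 0.775 for Diaph2 and 0.871 for Fto, and 0.234 for Dock2 and 0.169 for Bank1. Other lymphocyte signalling genes went both ways, with ratios of 0.987 for Prkca and of 0.446 and 0.565 for Arhgap15. Dock2 and Bank1 do not stand for the abundant members of other roles. Among these, Aff3, Rabgap1l and Lrba had ratios of 1.14, 0.965 and 0.736, and Exoc4 had 0.546. A relation between CpG content and the difference between genotypes was not tested. By a limit of at least 50% GC and a ratio of at least 0.6, 36 of the 56 windows (64.3%) were CpG-rich, against 59.9% of 14296 windows of tested genes and 33.5% of all 32851 windows. The hexamer TATAAA, sought on both strands, was in 5 of the 56 windows (8.93%, against 13.6% of all windows and 7.86% of those of tested genes). The pentamer CCAAT was in 21 (37.5%, against 37.4% of all windows), and the GC box GGGCGG was in 33 (58.9%, against 35.7% of all windows and 58.0% of those of tested genes). The list therefore held these letters at about the shares of expressed genes. Foxp1 shows how far starts of 1 gene can differ, with 3 windows at ratios of 0.282, 0.499 and 1.11. Windows of 1 gene may overlap, and no measurement here says which start was used.

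The libraries differed in depth. Their totals ranged from 9941014 to 25473404 counts in the Top3b-KO libraries and from 15262060 to 15860287 in the WT libraries (two-sided exact permutation p = 0.4, where 3 against 3 cannot give a p under 0.1). Top3b itself had 1257, 1216 and 491 counts in the Top3b-KO libraries, against 1472, 1326 and 1449 counts in the WT libraries. In CPM, which are counts scaled to the size of each library, it was at 49.8 ± 1.66 CPM in Top3b-KO and 91.0 ± 4.06 CPM in WT (SD, n = 3 each), a log2 fold change of -0.87 ± 0.071 (SE, edgeR adjusted p = 5.8e-06). The test is the quasi-likelihood F test of edgeR, and adjusted p-values are Benjamini-Hochberg values over all 18716 tested genes. A count per gene does not show which exons the remaining reads came from. Of 18716 tested genes, 1 passed as higher and 1 as lower at an adjusted p of 0.05 (0.00534% each way). Markers of B cells, T cells, neutrophils, red pulp macrophages and erythroid cells were all detected, 5 of 5 in each list. The summed B cell markers were at 2897 to 3043 CPM in Top3b-KO and 2725 to 3259 CPM in WT, and the T cell markers at 744 to 785 CPM and 670.5 to 772 CPM. Neutrophil markers summed to 417 to 1408 CPM in Top3b-KO and 589 to 1041 CPM in WT, red pulp macrophage markers to 346 to 397 CPM and 373 to 425 CPM, and erythroid markers to 736 to 1055 CPM and 898 to 1581 CPM. Log2 fold changes were above 0 for 5 of 5 T cell markers (median 0.074) and 2 of 5 neutrophil markers. They were above 0 for 0 of 5 B cell, red pulp macrophage and erythroid markers (medians -0.032, -0.093 and -0.34). In each of these lists 0 markers passed. Stromal and endothelial markers summed to 249.9 to 270.1 CPM in Top3b-KO and 239.7 to 269.7 CPM in WT, with 3 of 5 tested. Nearly all of this was Pecam1, while Cdh5 and Pdgfrb reached at most 2.83 and 1.38 CPM in any library. Col1a1 and Col3a1 had at most 11 and 3 counts. Neuronal markers, which matter because Nbea and Auts2 are best known in neurons, summed to 8.28 to 12.1 CPM in Top3b-KO and 8.63 to 12.2 CPM in WT, most of it Map2, while Snap25 and Syt1 had at most 2 counts in any library.

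The label of an expressed gene held for 44 of the 46 members, and those 44 passed the filter on low counts. Dpyd, which starts the breakdown of pyrimidines, had 1 count in Top3b-KO replicate 1 and 0 in the other 5 libraries. Pard3, an organiser of cell polarity, had 4, 3 and 1 counts in the Top3b-KO libraries, against 2, 1 and 1 counts in the WT libraries, so a difference was not detectable for either gene at this depth. A floor of 3 counts equals 0.119 to 0.303 CPM in the Top3b-KO libraries and 0.188 to 0.197 CPM in the WT libraries, covering counting error only. The other 44 ranged from 2.02 CPM for Fhit to 1120 CPM for Dock2 as the mean of 6 libraries, with a median of 53.4 CPM. In the plot of members by library, each gene keeps its own level across the 6 libraries, and the symbols of both genotypes lie close together at most genes.

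**Figure D1:**
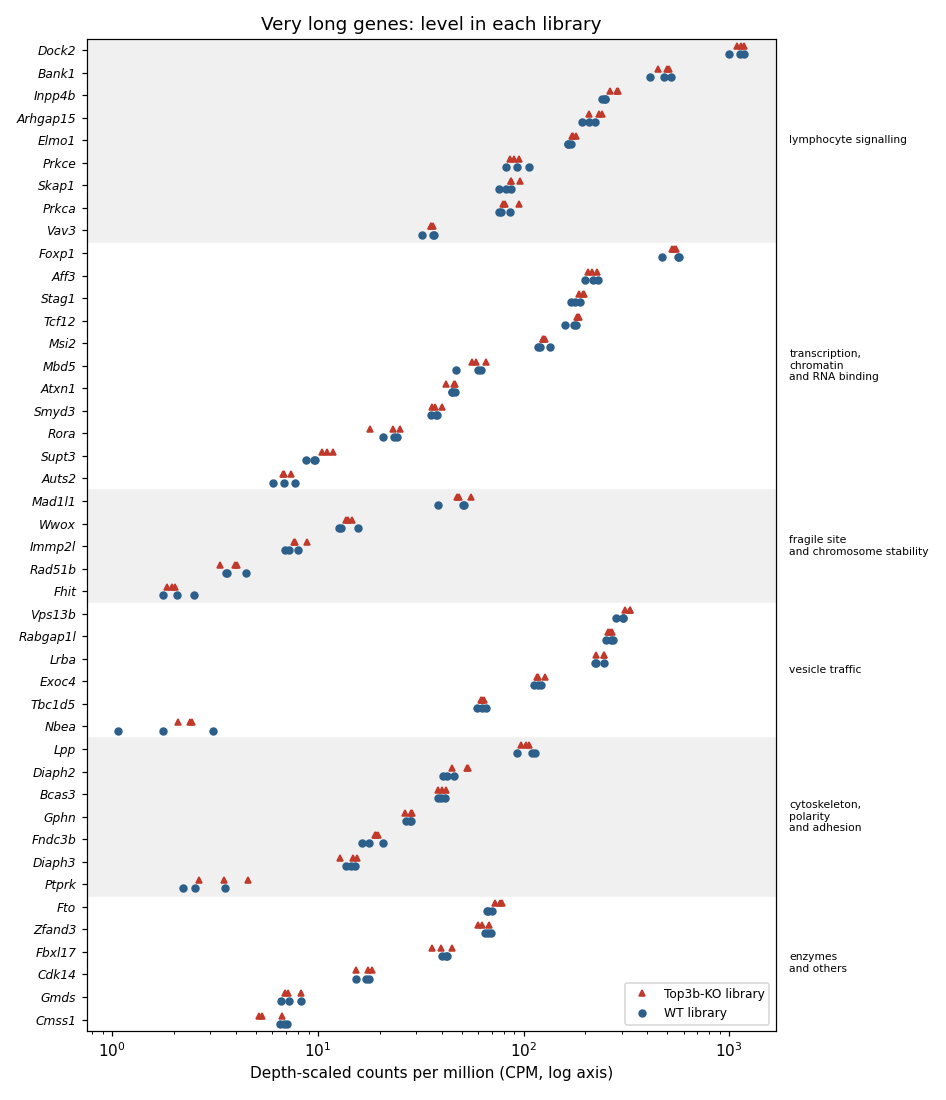
Level of each of the 44 very long genes that passed the low-count filter, in CPM on a log axis, with 1 triangle per Top3b-KO library (upper row of each gene) and 1 circle per WT library (lower row), genes grouped by role. Levels run from about 2 CPM for Fhit to 1120 CPM for Dock2, and the low genes Nbea and Ptprk show the widest scatter between libraries.

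Levels of different genes were compared per kilobase of the longest annotated transcript. That scale takes RNA length out only as far as this transcript was the one expressed, which was not measured. The order from the top was Dock2 at 175 CPM per kb, Bank1 at 113, Foxp1 at 74.9, Arhgap15 at 46.1, Rabgap1l at 41.6 and Skap1 at 41.0 CPM per kb, over 6 libraries. Rabgap1l and Skap1 do not differ beyond their spread, since their coefficients of variation within genotypes were 3.35% and 6.18%. At the bottom were Fhit at 1.85, Rad51b at 1.75, Auts2 at 0.935, Ptprk at 0.512 and Nbea at 0.195 CPM per kb. The median over the 44 was 9.06 CPM per kb, with 32.5 for the lymphocyte signalling genes and 3.68 for the genes of fragile sites and chromosome stability, of which Mad1l1 was the highest at 18.4 CPM per kb.

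In Top3b-KO against WT, 0 of the 44 tested members passed the adjusted threshold of 0.05 in edgeR, where 0.0107% of all tested genes did, and 0 passed by DESeq2. The smallest adjusted p among them was 0.78, for Inpp4b. At an unadjusted p under 0.05 there were 3 members, all higher in Top3b-KO (5.52% of all tested genes passed that limit, 1.83% higher and 3.69% lower), and by DESeq2 there were 2. The log2 fold changes of the 44 ran from -0.28 for Cmss1 to 0.43 for Ptprk, with a median of 0.034, against -0.0029 for all tested genes. Estimates lay within 1.2-fold for 42 of the 44, all but these same Cmss1 and Ptprk. The 95% interval of the log2 fold change stayed inside a 1.5-fold difference in either direction for 40 of the 44. The 4 whose intervals reached further were Fhit, Nbea, Ptprk and Cmss1, which are among the 8 members under 10 CPM.

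**Figure D2:**
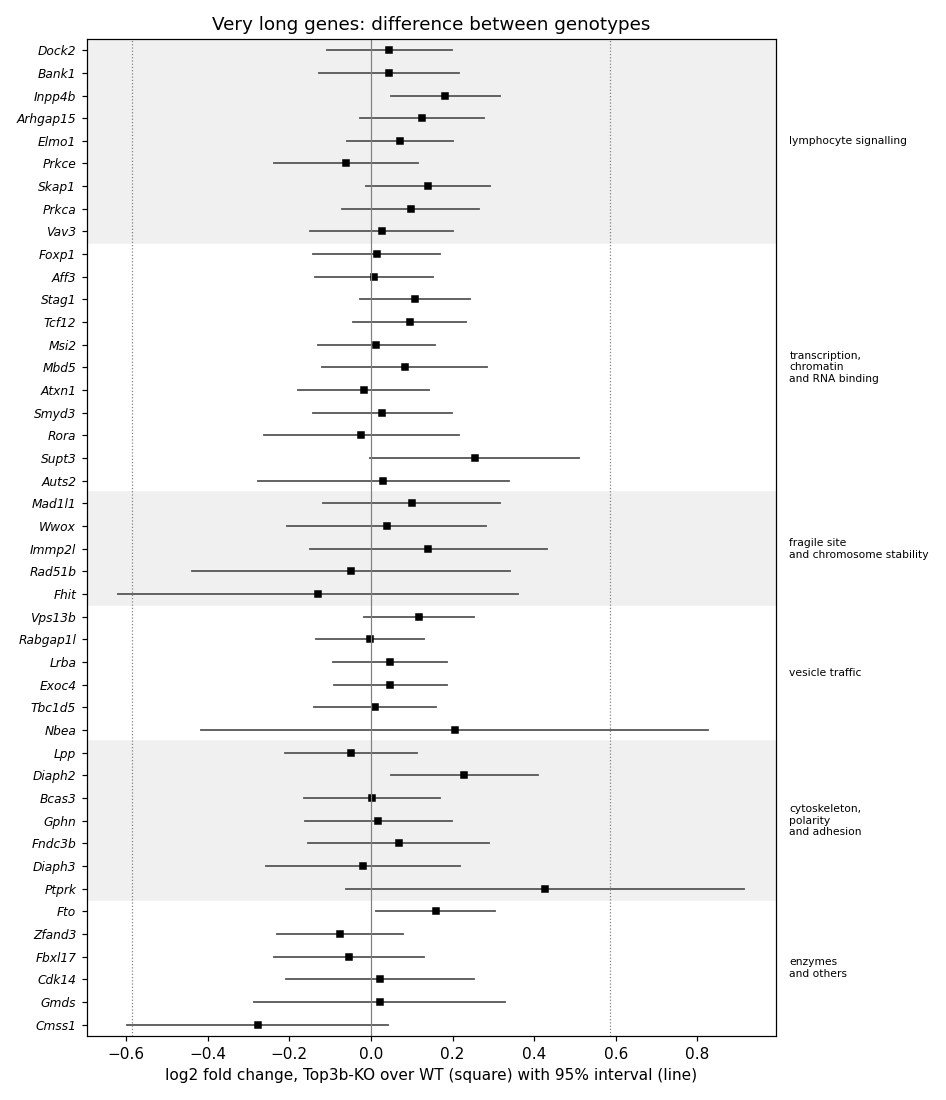
Difference between genotypes for each of the 44 tested very long genes, as log2 fold change of Top3b-KO over WT (squares) with its 95% interval (lines), grouped by role; dotted lines mark 1.5-fold. Intervals of 40 genes stay between the dotted lines, and Fhit, Nbea, Ptprk and Cmss1 reach past them.

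More members had positive than negative estimates. The log2 fold change was above 0 for 33 of the 44, against 49.1% of all tested genes. The 3 Top3b-KO libraries lay above the 3 WT libraries for 7 members, Inpp4b, Skap1, Elmo1, Supt3, Tcf12, Vps13b and Fto (5.39% of all tested genes), and below them for 0 (5.63%). At a mean of 10 CPM or more, 28 of 36 members (77.8%) had a positive estimate, as did 122 of 190 other genes spanning at least 250 kb (64.2%) and 52.2% of all tested genes at that level. The Top3b-KO libraries lay above all WT libraries for 24 of those 190 other long genes and below them for 1. Among all 9669 tested genes at that level these counts were 582 and 438. Without WT replicate 1 the count above 0 was 25 of 44 and the median log2 fold change 0.023. The median was 0.072 without Top3b-KO replicate 1 and 0.058 without WT replicate 2. No member was called in any of these.

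Genes of lymphocyte signalling had the highest median level per kb of the 6 role groups. Of 9 members 8 had positive estimates and 0 passed, with a median log2 fold change of 0.071. Inpp4b, a phosphatase that removes a phosphate from signalling phosphoinositides, had 264, 287 and 286 CPM in the Top3b-KO libraries, against 241, 249 and 248 CPM in the WT libraries. All 3 Top3b-KO libraries lay above all WT libraries. Its means were 279 ± 12.8 CPM in Top3b-KO and 246 ± 4.49 CPM in WT (SD, n = 3 each), a log2 fold change of 0.18 ± 0.063 (SE, edgeR adjusted p = 0.78), and it ranked 236th by p-value among the 18716 genes. Skap1, an adaptor that links the T cell receptor to integrins, had 86.9, 87.2 and 96.1 CPM in the Top3b-KO libraries, against 86.5, 82.3 and 75.8 CPM in the WT libraries. The nearest libraries, Top3b-KO replicate 1 and WT replicate 1, lay close together, and the difference did not pass, with a log2 fold change of 0.14 ± 0.073 (SE, edgeR adjusted p = 0.91). WT replicate 3, the lowest for Skap1, was also the lowest for the summed T cell markers, at 670.5 CPM, and the part of that in the Skap1 values was not tested.

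Dock2, the exchange factor through which lymphocytes activate Rac to migrate, had 1093, 1143 and 1176 CPM in the Top3b-KO libraries, against 1127, 1184 and 996 CPM in the WT libraries. WT replicate 3 was the lowest library and WT replicate 2 the highest, so the WT range enclosed the Top3b-KO range. Its log2 fold change was 0.045 with a 95% interval of -0.11 to 0.20. Elmo1, a partner of Dock proteins, had 171, 174 and 181 CPM in the Top3b-KO libraries, against 165, 169.7 and 165 CPM in the WT libraries, with no overlap and a log2 fold change of 0.071 (an adjusted p of 0.94, edgeR). Bank1, a scaffold of B cell receptor signalling, had 449, 499.8 and 511 CPM in the Top3b-KO libraries, against 412, 482 and 522 CPM in the WT libraries. WT replicate 1 was the lowest library and WT replicate 3 the highest, and the groups overlapped. WT replicate 1 and WT replicate 3 were also the lowest and the highest library for the summed B cell markers, at 2725 and 3259 CPM, and the part of that in the Bank1 values was not tested. Prkce, a protein kinase C, had 90.3, 85.8 and 95.4 CPM in the Top3b-KO libraries, against 82.5, 107 and 93.4 CPM in the WT libraries, a log2 fold change of -0.061 that was the single negative estimate of the group. Its relative Prkca had a log2 fold change of 0.097. Arhgap15, a Rac GTPase-activating protein, had a log2 fold change of 0.13 and the exchange factor Vav3 of 0.027, both with overlapping groups.

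Among the 11 genes of transcription, chromatin and RNA binding, 9 had positive estimates and 0 passed, with a median log2 fold change of 0.028. Foxp1, a forkhead factor needed for B cell development and for the quiescence of naive T cells, had 528, 541 and 553 CPM in the Top3b-KO libraries, against 471, 561 and 573 CPM in the WT libraries. The Top3b-KO libraries fell inside the WT range, and WT replicate 1 was again the lowest. Its means were 540.4 ± 12.5 CPM in Top3b-KO and 535 ± 55.5 CPM in WT (SD, n = 3 each), a log2 fold change of 0.014 ± 0.074 (SE, edgeR adjusted p = 0.99). Aff3, a lymphoid nuclear protein of the family whose members take part in elongation complexes, had 207, 216 and 228 CPM in the Top3b-KO libraries, against 199.7, 230.5 and 217 CPM in the WT libraries. The groups overlapped, and the log2 fold change of 0.0071 had a 95% interval of -0.14 to 0.15. Stag1, a subunit of cohesin, had 187, 194 and 196 CPM in the Top3b-KO libraries, against 178, 169.7 and 187 CPM in the WT libraries. WT replicate 3 lay just above Top3b-KO replicate 1, and otherwise the Top3b-KO libraries were higher, with a log2 fold change of 0.11 ± 0.064 (SE, edgeR adjusted p = 0.91).

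Supt3, a subunit of the SAGA coactivator, was at a much lower level. It had 11.02, 11.8 and 10.4 CPM in the Top3b-KO libraries, against 9.62, 8.78 and 9.67 CPM in the WT libraries, from 103 to 299 counts in the Top3b-KO libraries and 134 to 154 counts in the WT libraries. The groups did not overlap, with a log2 fold change of 0.25 ± 0.12 (SE, edgeR adjusted p = 0.90). Tcf12, an E protein of lymphocyte development, had 182, 183 and 186 CPM in the Top3b-KO libraries, against 159, 177 and 180.1 CPM in the WT libraries. The Top3b-KO libraries lay close together and just above WT replicate 3, while WT replicate 1 was the lowest, with a log2 fold change of 0.095 ± 0.066 (SE, edgeR adjusted p = 0.91). The others were Msi2, an RNA-binding protein of stem cells, at 0.013, the methyl-CpG-binding-domain gene Mbd5 at 0.083, the corepressor gene Atxn1 at -0.018, the methyltransferase gene Smyd3 at 0.028, the nuclear receptor gene Rora at -0.024 and the Polycomb-associated Auts2 at 0.031 as log2 fold changes, all with overlapping groups. Rora was lowest in Top3b-KO replicate 3, at 18.01 CPM, with 23.2 and 25.1 CPM in the other Top3b-KO libraries, against 20.8 to 24.3 CPM in WT.

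The genes of fragile sites and chromosome stability include Fhit, the longest and, in mean CPM, the least abundant of the tested members. Of 5 members 3 had positive estimates and 0 passed, with a median log2 fold change of 0.038. Fhit, a hydrolase of dinucleoside polyphosphates at a fragile site in mouse and human, had 45, 49 and 20 counts in the Top3b-KO libraries, against 32, 38 and 28 counts in the WT libraries. The mean was 1.94 ± 0.0901 CPM in Top3b-KO and 2.11 ± 0.368 CPM in WT (SD, n = 3 each), and the 95% interval of its log2 fold change, -0.62 to 0.36, includes differences of 1.5-fold downwards. Wwox, an oxidoreductase gene whose human counterpart lies at another fragile site, had 14.0, 13.7 and 14.7 CPM in the Top3b-KO libraries, against 15.6, 12.7 and 12.9 CPM in the WT libraries. WT replicate 1 was the highest library and WT replicate 2 the lowest, so the WT libraries enclosed those of Top3b-KO. Immp2l, a protease of the inner mitochondrial membrane, had 7.74, 8.87 and 7.69 CPM in the Top3b-KO libraries, against 8.01, 6.95 and 7.22 CPM in the WT libraries, a log2 fold change of 0.14 with an interval of -0.15 to 0.43. Mad1l1, of the spindle checkpoint, had 48.5, 47.3 and 55.7 CPM in the Top3b-KO libraries, against 51.4, 50.9 and 38.4 CPM in the WT libraries. WT replicate 3 stood below the other 5 libraries, and without it the log2 fold change was -0.029. Rad51b, of homologous recombination, had 82, 100 and 40 counts in the Top3b-KO libraries, against 56, 68 and 57 counts in the WT libraries and a log2 fold change of -0.048.

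Vesicle traffic genes had the lowest median coefficient of variation within genotypes of the 6 role groups, 4.18%, against 7.40% over the 44 members. Of 6 members 5 had positive estimates and 0 passed, and the median log2 fold change was 0.047. Vps13b, a large lipid-transfer protein of the Golgi, had 312, 328 and 328 CPM in the Top3b-KO libraries, against 280.2, 306 and 306 CPM in the WT libraries. The groups did not overlap, with a log2 fold change of 0.12 ± 0.064 (SE, edgeR adjusted p = 0.91). One exon overlap of Vps13b is with Cox6c, a respiratory chain gene on the opposite strand. Rabgap1l, a regulator of Rab GTPases, had 257, 270.3 and 263 CPM in the Top3b-KO libraries, against 252, 266 and 273 CPM in the WT libraries. Its log2 fold change of -0.0019 had an interval of -0.13 to 0.13. Lrba, a BEACH-domain protein that protects the checkpoint receptor CTLA-4 from degradation, had 225, 246 and 245 CPM in the Top3b-KO libraries, against 222, 245 and 226 CPM in the WT libraries. Top3b-KO replicates 2 and 3 and WT replicate 2 were the high libraries, the other 3 were low, and the log2 fold change was 0.046. Its relative Nbea, better known at synapses, had 51, 60 and 24 counts in the Top3b-KO libraries, against 48, 27 and 17 counts in the WT libraries, and WT replicate 1 held more than the others of its group. The exocyst subunit gene Exoc4 had a log2 fold change of 0.048 and the Rab regulator Tbc1d5 of 0.010.

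Of 7 tested genes of the cytoskeleton, polarity and adhesion, 5 had positive estimates and 0 passed, with a median log2 fold change of 0.018. Diaph2, a formin that nucleates actin filaments and lies on the X chromosome, had 45.1, 53.1 and 53.8 CPM in the Top3b-KO libraries, against 42.6, 40.7 and 45.99 CPM in the WT libraries. Top3b-KO replicate 1 lay inside the WT range and the other Top3b-KO libraries above it. Its means were 50.7 ± 4.84 CPM in Top3b-KO and 43.1 ± 2.67 CPM in WT (SD, n = 3 each), a log2 fold change of 0.23 ± 0.086 (SE, edgeR adjusted p = 0.83). The related formin Diaph3, an actin nucleator active in dividing cells, was at 14.4 ± 1.37 CPM in Top3b-KO and 14.5 ± 0.726 CPM in WT and had a log2 fold change of -0.020. Lpp, a LIM protein of focal adhesions, had 97.0, 106 and 103 CPM in the Top3b-KO libraries, against 92.8, 113 and 109.8 CPM in the WT libraries, with WT replicate 1 lowest and the groups overlapping. Bcas3, a protein of cytoskeletal organisation, had 40.1, 38.3 and 42.0 CPM in the Top3b-KO libraries, against 41.5, 39.8 and 38.6 CPM in the WT libraries and a log2 fold change of 0.0029. Ptprk, a receptor tyrosine phosphatase, had 112, 88 and 26 counts in the Top3b-KO libraries, against 39, 54 and 35 counts in the WT libraries. Per depth it averaged 3.57 ± 0.981 CPM in Top3b-KO and 2.75 ± 0.701 CPM in WT, and the log2 fold change of 0.43 with an interval of -0.062 to 0.91 overlapped 0. Gphn, the scaffold gephyrin, and Fndc3b, a membrane protein with fibronectin domains, had log2 fold changes of 0.018 and 0.067.

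The enzymes and other genes were evenly divided, with 3 of 6 tested estimates above 0, 0 passing and a median log2 fold change of -0.016. Fto, which removes methyl groups from RNA, had 72.3, 76.5 and 78.7 CPM in the Top3b-KO libraries, against 66.6, 69.9 and 67.0 CPM in the WT libraries. The groups did not overlap, and the means were 75.8 ± 3.23 CPM in Top3b-KO and 67.8 ± 1.84 CPM in WT (SD, n = 3 each), a log2 fold change of 0.16 ± 0.069 (SE, edgeR adjusted p = 0.88). Exons of Fto overlap 2 genes on the opposite strand. Cmss1 had 5.37, 5.19 and 6.68 CPM in the Top3b-KO libraries, against 7.04, 6.56 and 6.85 CPM in the WT libraries, or 66 to 131 counts in the Top3b-KO libraries and 100 to 109 counts in the WT libraries. Top3b-KO replicates 1 and 2 were lower than every WT library and Top3b-KO replicate 3 lay among them, with a log2 fold change of -0.28 ± 0.15 (SE, edgeR adjusted p = 0.91). Zfand3, the zinc finger gene under 250 kb, had 68.2, 62.8 and 59.9 CPM in the Top3b-KO libraries, against 67.5, 69.4 and 64.8 CPM in the WT libraries, a log2 fold change of -0.076. Fbxl17, of a ubiquitin ligase, had 39.8, 36.0 and 45.0 CPM in the Top3b-KO libraries, against 40.0, 42.4 and 42.0 CPM in the WT libraries, a log2 fold change of -0.053. Gmds, which makes the activated form of fucose, and the cyclin-dependent kinase gene Cdk14 both had a log2 fold change of 0.021.

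**Figure D3:**
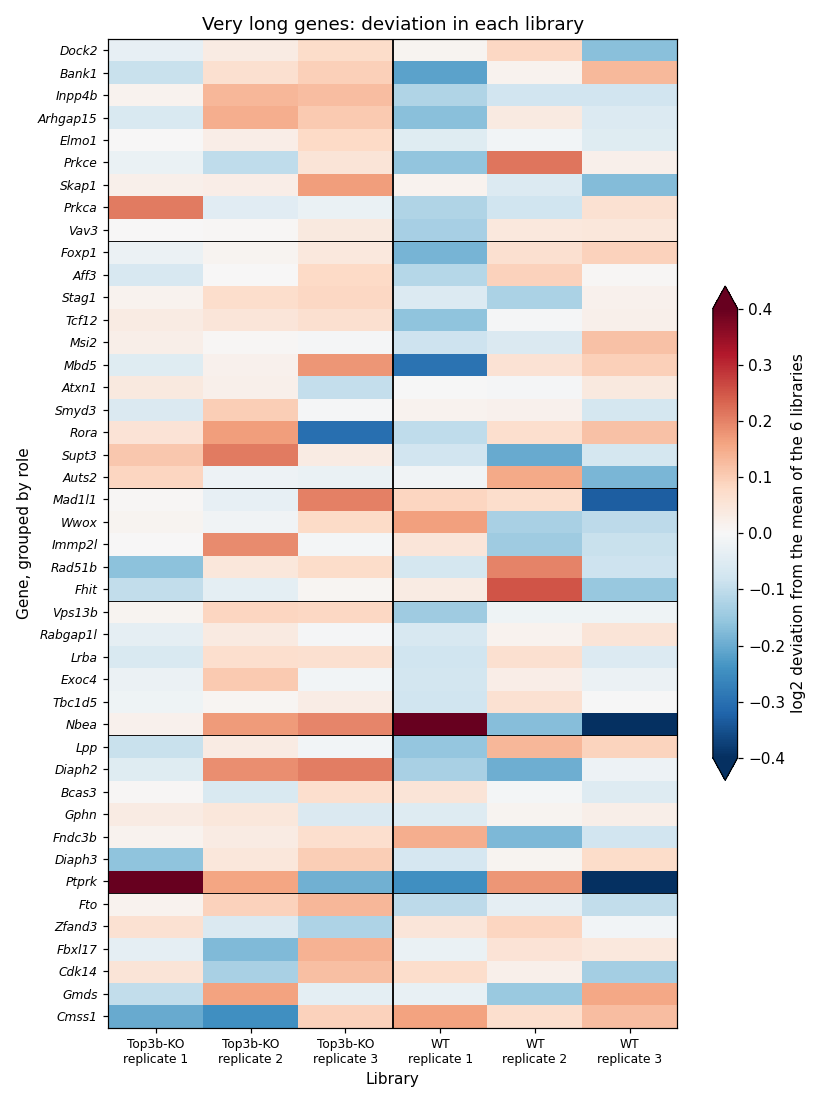
Deviation of each of the 44 tested very long genes from its mean over the 6 libraries, as log2 of CPM with 0.5 added, with 1 column per library (Top3b-KO left of the line, WT right) and genes grouped by role; colours are limited at 0.4. WT replicate 1 is the lowest library for 18 of the 44 genes, and Top3b-KO replicates 2 and 3 are the highest for 11 and 12.

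Single libraries differed as much as the genotypes did. In the heat map of members by library, 18 of the 44 genes were lowest in WT replicate 1, 10 in WT replicate 3 and 7 in WT replicate 2, and 2, 3 and 4 were lowest in Top3b-KO replicates 1, 2 and 3. The median deviation of the members from their mean over 6 libraries was 0.0027, 0.033 and 0.066 on the log2 scale in Top3b-KO replicates 1, 2 and 3, and -0.069, 0.016 and -0.019 in WT replicates 1, 2 and 3. Over all tested genes these medians were 0.0033, 0.0017 and 0.0032 in Top3b-KO and 0.0046, 0.0041 and -0.00058 in WT, in the same order. WT replicate 1 also shifted with span over the whole table, where its median deviation was 0.031 for genes under 10 kb, 0.010 for 10 to 50 kb, -0.028 for 50 to 100 kb, -0.030 for 100 to 250 kb, -0.049 for 250 to 500 kb and -0.067 for 500 kb or more. WT replicate 1 had the lowest summed B cell markers and the highest summed markers of dividing cells, at 431 CPM, against 302 to 391.8 CPM in the Top3b-KO libraries and 361 and 364 CPM in the other WT libraries. Top3b-KO replicate 3 had the highest summed neutrophil markers, 1408 CPM, against 417 and 573 CPM in the other Top3b-KO libraries and 589 to 1041 CPM in WT. The part of these shifts in the members' values was not tested, and in whole splenocytes fewer cells of a type and less RNA per cell cannot be told apart.

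Beyond the list, 341 other tested genes span at least 250 kb. By edgeR's adjusted p 0 of them passed. At an unadjusted p under 0.05, 19 were higher and 3 lower (1.83% and 3.69% of all tested genes). A positive estimate was found for 194 (56.9%, against 49.1% of all tested genes). The median log2 fold change of the 341 was 0.030. Those with the smallest p-values on the higher side were Tnik, Slc7a11 and Zfp407. Tnik, a kinase of Wnt and cytoskeletal signalling, was at 146 ± 8.13 CPM in Top3b-KO and 123 ± 2.95 CPM in WT (SD, n = 3 each), a log2 fold change of 0.24 ± 0.066 (SE, edgeR adjusted p = 0.53). Slc7a11, the cystine transporter, was at 28.2 ± 5.95 CPM in Top3b-KO and 19.7 ± 1.99 CPM in WT, with a log2 fold change of 0.51 ± 0.14 (SE, edgeR adjusted p = 0.59). Zfp407, a zinc finger gene, was at 139 ± 3.61 CPM in Top3b-KO and 123 ± 3.29 CPM in WT, with a log2 fold change of 0.18 ± 0.063 (SE, edgeR adjusted p = 0.78). All 3 were picked by p-value, and all 3 were higher in 3 of 3 Top3b-KO libraries than in any WT library. Of the 341 genes 30 lay so (5.39% of all tested genes did). In 6 of the 341, 3 of 3 Top3b-KO libraries lay below every WT library (5.63% of all tested genes). The smallest p-values on the lower side belonged to genes of low level, Esrrg at 0.370 ± 0.0578 CPM in Top3b-KO and 0.795 ± 0.221 CPM in WT, Ksr2 at 7.72 ± 0.816 CPM in Top3b-KO and 9.79 ± 1.46 CPM in WT and Etl4 at 1.40 ± 0.647 CPM in Top3b-KO and 2.27 ± 0.243 CPM in WT, with adjusted p of 0.86, 0.88 and 0.89 by edgeR.

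Span and difference were weakly related across the whole table, and less weakly in protein-coding genes at 10 CPM or more. Median log2 fold changes were -0.033 for genes spanning under 10 kb, -0.0018 for 10 to 50 kb, 0.025 for 50 to 100 kb, 0.031 for 100 to 250 kb, 0.028 for 250 to 500 kb and 0.040 for 500 kb or more. The medians of the 4 classes from 50 kb upwards lay between 0.025 and 0.040. Over 17572 genes the log2 fold change was higher by 0.029 for each 10-fold of span, with Pearson's r of 0.099 and Spearman's rho of 0.12 across genes, which are not independent replicates. Among the 44 members themselves r was 0.0067, and the median log2 fold change was 0.042 for the 22 of 500 kb or more and 0.022 for the 22 under 500 kb. Restricted to 12831 protein-coding genes the slope was 0.064 per 10-fold of span and r was 0.20. In the 8889 protein-coding genes at 10 CPM or more, r was 0.31 and Spearman's rho 0.31. There 30.9% of genes under 10 kb and 51.4% of those of 10 to 50 kb had a positive estimate. For 50 to 100 kb, 100 to 250 kb and 250 to 500 kb the shares were 66.5%, 66.6% and 65.4%. For 500 kb or more the share was 72.7%.

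**Figure D4:**
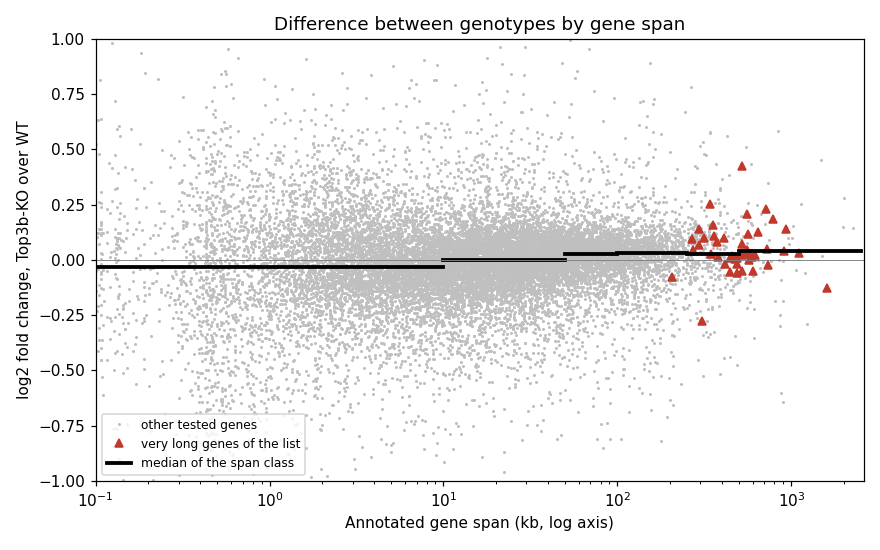
Log2 fold change of Top3b-KO over WT against annotated gene span in kb on a log axis, for tested genes (grey points) and the very long genes of the list (triangles), with the median of each span class (black lines); 218 of 17572 genes lie outside the axes. The medians run from -0.033 under 10 kb to 0.040 at 500 kb or more, and the triangles scatter to both sides of 0.

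The same relation was taken in each library, as the slope on span of the deviation from the mean of the 6 libraries. Because of this centring, the mean slopes of the groups are equal and opposite by construction. They show only the difference between the groups. Over all genes the slopes were 0.010, 0.011 and 0.014 in Top3b-KO replicates 1, 2 and 3, against -0.019, -0.013 and -0.0033 in WT replicates 1, 2 and 3. The groups did not overlap, and the two-sided exact permutation p was 0.1, the smallest that 3 against 3 allows. Long genes also have longer transcripts of lower GC content, with a median of 46.3% GC in the longest transcripts of the 46 members and 49.0% in those of all tested genes. In protein-coding genes at 10 CPM or more, the slopes averaged 0.031 in Top3b-KO and -0.031 in WT (exact permutation p = 0.1). With transcript length alone as a covariate the slopes there averaged 0.019 in Top3b-KO and -0.019 in WT (exact permutation p = 0.1). With transcript length and GC they averaged 0.010 in Top3b-KO and -0.010 in WT, the groups overlapped, and the exact permutation p was 0.3. Over all 17572 genes the same pair of covariates left the slope of the log2 fold change at 0.026. The library slopes were then -0.0012, 0.022 and 0.0075 in Top3b-KO replicates 1, 2 and 3, against -0.013, -0.0074 and -0.0083 in WT replicates 1, 2 and 3, without overlap (exact permutation p = 0.1). In all protein-coding genes the exact permutation p was 0.2 with transcript length alone and 0.2 with transcript length and GC. In all genes at 10 CPM or more these were 0.2 and 0.5, and the groups overlapped in each of these comparisons. These per-library slopes and covariates were chosen after the data were seen. Over the 12 such comparisons made, the Benjamini-Hochberg adjusted p was 0.171 for each raw p of 0.1 and 0.24 for each of 0.2. It was 0.327 for the p of 0.3 and 0.5 for the p of 0.5.

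**Figure D5:**
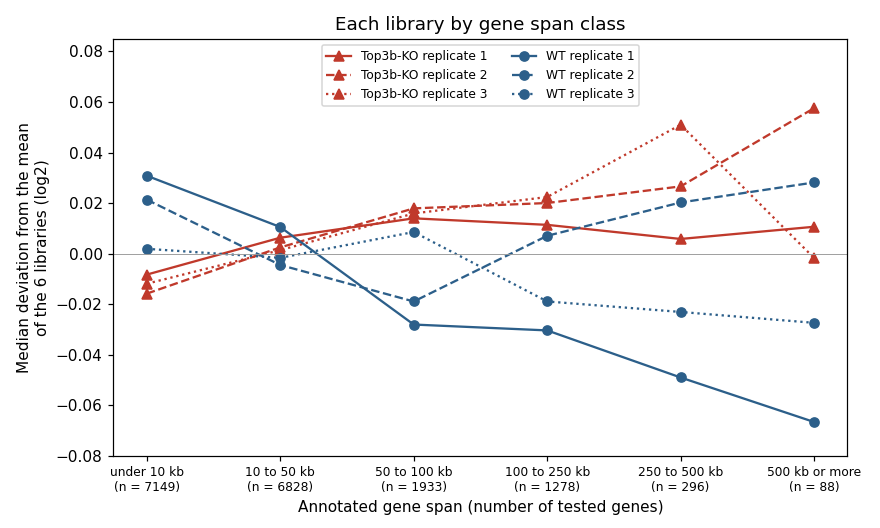
Median deviation of each library from the mean of the 6 libraries (log2 of CPM with 0.5 added) in 6 classes of gene span, with triangles for Top3b-KO and circles for WT libraries. Above 250 kb WT replicate 1 falls to -0.049 and -0.067, while WT replicate 2 lies at 0.020 and 0.028, among the Top3b-KO libraries.

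Genes spanning at least 250 kb held 2.87%, 2.90% and 2.95% of all counts in Top3b-KO replicates 1, 2 and 3, against 2.75%, 2.88% and 2.77% in WT replicates 1, 2 and 3. WT replicate 2 lay between Top3b-KO replicates 1 and 2, so the groups overlapped at this limit. The mean share was 2.91 ± 0.0433% in Top3b-KO and 2.80 ± 0.0728% in WT (SD, n = 3 each), and the two-sided exact permutation p was 0.2. For genes of at least 100 kb the share was 14.7%, 14.7% and 14.9% in Top3b-KO replicates 1, 2 and 3, against 14.1%, 14.5% and 14.3% in WT replicates 1, 2 and 3, without overlap (exact permutation p = 0.1, the smallest possible). For genes of at least 500 kb the p was 0.4. The 46 members alone held 0.557 ± 0.0166% of the counts in Top3b-KO and 0.540 ± 0.0213% in WT.

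Topoisomerases and elongation factors, the machinery that such long transcription depends on, were read from the same fit. Of 12 topoisomerases and partners 1 passed, Top3b itself, and the median log2 fold change was 0.015. A positive estimate was found for 7 (58.3%, against 49.1% of all tested genes). Top1, the main enzyme that relaxes transcribed DNA, was at 279.9 ± 18.4 CPM in Top3b-KO and 271 ± 17.1 CPM in WT (SD, n = 3 each), a log2 fold change of 0.047. Top2b, the topoisomerase of non-dividing cells, had a log2 fold change of 0.063, and Top2a, its relative of dividing cells, of -0.19. Top3a, the paralogue of Top3b, had one of 0.11, and the partner Tdrd3 of -0.047, with adjusted p of 0.93 and 0.97 by edgeR. Of 29 genes of elongation factors 0 passed, and the median log2 fold change was 0.045. A positive estimate was found for 21 (72.4%), against 52.2% of all tested genes at 10 CPM or more and 77.8% of members at that level. These 29 genes are much shorter than the members, with spans from 5.98 kb for Nelfe to 163 kb for Aff1. Cdk12, a kinase of the polymerase tail that sustains elongation in long genes, was at 262 ± 4.72 CPM in Top3b-KO and 240.5 ± 12.1 CPM in WT (SD, n = 3 each), a log2 fold change of 0.12 with an adjusted p of 0.91 (edgeR). Polr2a, the largest polymerase II subunit, had a log2 fold change of 0.084 and the pausing factor gene Nelfe of -0.16. Without Top3b-KO replicate 3 the median of the elongation factors was 0.023, and without Top3b-KO replicate 1, Top3b-KO replicate 2, WT replicate 2 and WT replicate 3 that of the topoisomerases and partners was 0.0068, 0.034, 0.0011 and 0.025.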

How the data were processed

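Expected counts per gene symbol were deposited as 1 table covering the 6 libraries. The aligner was STAR and the build mm39, per the submitters' processing notes. No source used here names the counting tool, its strand setting or its annotation. Of the deposited expected counts, 72 symbols held values that were not whole (tolerance 1e-06), which were rounded. All 6 columns were used, grouped by library title.

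The 18716 genes that passed filterByExpr of edgeR 4.0.16 were scaled by TMM and fitted with robust dispersion and genotype as the single term. The quasi-likelihood F test was two-sided and its p-values were adjusted over every tested gene by Benjamini-Hochberg, with a threshold of 0.05. Alternatives used DESeq2 1.42.0 and limma 3.58.1 under R 4.3.3, other scalings and filters, a replicate block, and each library left out. Intervals on log2 fold changes are at 95%, from the standard error and degrees of freedom of the fit. GENCODE M21 gave spans, transcripts and gene classes for 49205 symbols (87.2%), and RefSeq on GRCm38.p6 gave promoters. Code for the fits was first run on simulated counts.

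The members, lists and tests were chosen with earlier results of these data known. Genes were named by rule: Top3b, the 5 members with the smallest p-values in each direction, the 3 most abundant members of each role, any member past the threshold, and the 3 other long genes with the smallest p-values in each direction. Remaining tested members are named with their role group, and some of them also elsewhere. Where library values are given for one of them, it was picked on seeing its values.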

Additional observations from a re-analysis of the deposited data

How the results depend on the processing

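In each of 16 refits Top3b passed the threshold, with log2 fold changes between -0.90 and -0.84. Of the very long genes 0 passed under each refit, which were other scalings, filters and tests, the replicate block and leaving out each library. Over all genes, 2 passed at first, 6 with DESeq2, 44 with no filter on low counts, 41 with the replicate block and 1 with robust=FALSE. When 1 library was dropped the count was 1 to 32, with 32 when WT replicate 3 was dropped, 9 when Top3b-KO replicate 1 was dropped, and 1 when Top3b-KO replicate 2, WT replicate 1 or WT replicate 2 was dropped. The replicate block left the members' median at 0.036 and their count above 0 at 33. Libraries sharing a number had correlations of 0.185, -0.0136 and 0.0138 between their deviations from the group means, and WT replicate 2 correlated most with Top3b-KO replicate 3, so the numbers were not taken as pairs. The members' median of 0.034 ranged from 0.023 to 0.072 when a library was left out, and that of the elongation factors, 0.045, from 0.023 to 0.055. With library totals alone as the scale, 30 of 44 members were above 0 and the median of all genes was -0.015, against -0.0029. The slope on span, 0.029, was 0.064 in protein-coding genes, 0.043 in genes of at least 10 CPM and 0.040 with no filter. The median of genes of at least 250 kb, 0.031, became 0.0090 on dropping WT replicate 1, 0.051 on dropping Top3b-KO replicate 1 and 0.057 on dropping WT replicate 2. Among the named members, Bcas3 and Rabgap1l changed sign in 7 of 16 refits, Aff3 in 4 and Foxp1 and Wwox in 2 each, none of them past the threshold. For none of these changes was the cause tested. Restricting the members by span or level was chosen after the data were seen and gave medians of 0.038 and 0.041. Top3b-KO replicate 3 had the fewest counts, which limits the members of low level most.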
